A study of Rattus norvegicus with 16 samples.

Results

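The piRNAs described here were 40072 listed rat piRNA entries that each had a single place in the rn5 genome, on a numbered chromosome, and that touched neither an annotated repeat nor an exon. They were 68.9% of the 58165 entries in the piRNA annotation and 78.8% of its single-place entries. The remainder were 9356 single-place entries on repeats, 1220 on exons, 64 on both, 118 on a chromosome without a number and 7335 entries with several places. Members were sorted by their start into bins of 100 kb, and a bin with at least 20 members was called a cluster.

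Small RNA was sequenced from germ cells (GCs) of 4 male Sprague-Dawley rats fed a high fat diet (HFD, 40% of calories from fat by the sample labels) and 4 fed a control diet (CD, 10%), from weaning to 19 weeks of age. All rats of both diets came from the GC-eGFP line, in which germ cells carry a fluorescent protein, and testicular cells were sorted for that fluorescence. The sort takes germ cells of different stages together, so that fewer cells of a stage and less RNA per cell cannot be told apart. mRNA libraries of the same design (4 HFD and 4 CD) were used only for the genes beside clusters. Whether the sorted cells carried the defining germ cell markers was not analysed here, since the gene identifiers could not be paired with symbols.

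piRNAs are short RNAs bound by PIWI proteins, which protect the germ line by silencing transposons and are needed for sperm formation. In the adult testis most of them are pachytene piRNAs, which are cut from long single-stranded transcripts of a limited number of intergenic loci, the piRNA clusters. Many clusters are transcribed in both directions from a shared promoter, so that the 2 arms give piRNAs of opposite strands. Few pachytene piRNAs match transposons, and for most of them no target is known, which makes entries outside genes and repeats the typical product of such loci.

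Total piRNA counts per library were between 891575 and 1240080 for HFD and between 961526 and 1120799 for CD. A count of 0 in the smallest library allowed a share of up to 0.000336% of its piRNA counts (3 counts), which covers counting error only. All 58165 entries were annotated on the plus strand and were counted in the reverse orientation, so that each count was a read of the minus strand. A read that touched more than 1 listed entry was, under the counting settings in the file headers, counted on none of them.

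The members held most of the piRNA reads in every library, at nearly the same share in both diets. They took 4903449 counts over the 8 libraries, 58.7% of all piRNA counts. The member share of replicates 1 to 4 was 58.8%, 58.6%, 59.0% and 58.4% on HFD. On CD it was 59.2%, 58.6%, 58.5% and 58.1%, in the same order. The means were 58.7% ± 0.273 (SD, n = 4) for HFD and 58.6% ± 0.436 (SD, n = 4) for CD, and the 2 ranges overlapped. Entries with several places came next with 26.0% of the counts, before single-place entries on repeats with 12.6% and those on exons with 2.46%. Only 6313 members (15.7%) had any count in the 8 libraries, and 4582 (11.4%) reached the mean of 1 count per library that was needed for a test. By comparison, 18.0% of the single-place entries on repeats and 31.5% of the entries with several places had a count.

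Nearly all members lay close together. The 40072 members fell into 638 bins, and 102 of these were clusters. The clusters held 39104 members (97.6%) and 96.5% of the members' counts. They formed 80 separate groups when neighbouring bins were joined, of which 21 spanned 2 or more bins and none more than 3. No bin held exactly 19 or 20 members. The 5 clusters nearest the threshold had 25 to 29 members and between 0 and 10584 counts, and the 5 bins just below it had 18 members each and between 18 and 12403 counts. The median cluster had 137 members and the richest had 2993.

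The counted reads were concentrated in far fewer places than the entries. The 10 clusters with the most counts held 49.4% of all member counts, 11 clusters passed 50%, and 39 passed 90%. At the other end, 21 clusters with 2806 members had under 100 counts each in all 8 libraries together, and 3 of them had none. Only minus-strand reads that touched a single entry were counted, so that low counts need not mean few piRNAs. Within the members, 171 entries (0.427%) held 50% of the counts. By chromosome, counts were highest on chromosome 1, with 18 clusters and 899708 counts, followed by chromosome 5 with 616628 and chromosome 4 with 610144. Chromosome 20 had the most members, 6650, but 475042 counts. Chromosomes 16 and 18 had 23 and 27 members and no cluster.

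The cluster with the most counts lay on chromosome 1 between positions 136160950 and 136200021. It held 1782 members, of which 308 had a count, and its sum was 384979 counts. Its level was 44102, 46301, 46104 and 47393 CPM (piRNA counts per 1000000 piRNA counts of the library, after TMM scaling) in the HFD libraries, replicates 1 to 4 in this order. In the CD libraries it was 45935, 46968, 47016 and 44072 CPM. The highest library was HFD replicate 4 and the lowest CD replicate 4, and the diets overlapped. The log2 fold change of HFD against CD was 0.01 (SE 0.03, 95% interval -0.06 to 0.08, edgeR adjusted p = 0.996). The CPM of clusters used the TMM factors of the test on entries, and their fold changes those of the test on clusters. Near 0 they can therefore differ in sign.

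The second was on chromosome 4 between positions 231200142 and 231273879, with 2494 members and 351152 counts. Its level was between 41046 and 42685 CPM in the HFD libraries and between 41432 and 42668 CPM in the CD libraries. The third, on chromosome 5 between positions 117152959 and 117200020, had 1229 members and 326401 counts. Its level was between 37647 and 38823 CPM on HFD and between 38444 and 42020 CPM on CD, where CD replicate 2 was the highest library. Neither cluster separated the diets, with log2 fold changes of 0.00 (SE 0.03) and -0.04 (SE 0.03).

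Ranks 4 to 10 were clusters on chromosomes 15, 8, 7, 12, 20, 8 and 6, with between 217289 and 165010 counts. Of these, the chromosome 20 cluster between positions 15900038 and 15912675 was the smallest, with 280 members in 12.6 kb, and the most variable. Its level was 22458, 21128, 20808 and 20971 CPM on HFD and 23879, 24962, 21431 and 21469 CPM on CD, each in the order of replicates 1 to 4. CD replicates 1 and 2 stood above all HFD libraries and CD replicates 3 and 4 within their range. Its log2 fold change of -0.09 (SE 0.05) was the one farthest from 0 among the 10. The ninth, on chromosome 8 from position 77862943, varied least, with an SD of 1.06% of its mean over the 8 libraries.

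**Figure D1:**
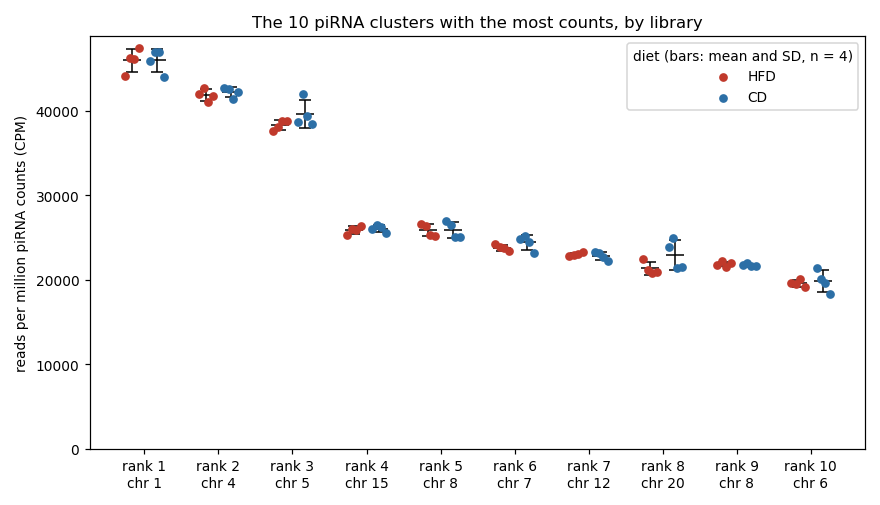
Level of the 10 clusters with the most counts, in CPM from 0 on a linear axis, with 1 point per library, HFD in red and CD in blue, and the mean and SD over n = 4 as black bars. Ranks 1 to 3 sit highest, rank 1 between 44072 and 47393 CPM, the other 7 form a lower group down to 18331 CPM, and the points of the 2 diets overlap in all 10.

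The clusters with the most entries were not always those with the most counts. The richest cluster, on chromosome 20 between positions 8813705 and 8899985, held 2993 members but ranked 12 with 138975 counts. It reached 17373, 17501, 17343 and 15298 CPM on HFD and 16155, 15491, 16743 and 17426 CPM on CD, each in the order of replicates 1 to 4. HFD replicate 4 was the lowest of all 8 and the other HFD libraries lay close together near the highest CD library. Its log2 fold change was 0.05 (SE 0.05). A chromosome 3 cluster between positions 88144619 and 88199566 held 2536 members and 3156 counts in all, 1.24 counts per member against 216 in the chromosome 1 cluster. Plus-strand reads of these clusters were not counted.

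The share of a cluster that its most counted entry carried ranged from 5.94% to 23.3% over the 10 clusters with the most counts. In the chromosome 1 cluster, rat_piRNA_165114 (positions 136193005 to 136193029) alone took 89894 counts, 23.3% of the cluster and 1.83% of all member counts, and 9 entries took 50% of the cluster. In the chromosome 5 cluster, rat_piRNA_167221 (positions 117160100 to 117160126) took 62358 counts, 19.1% of the cluster. In the chromosome 4 cluster, rat_piRNA_167524 (positions 231229413 to 231229440) took 45416 counts, 12.9%. It overlapped 5 other listed entries, and by the counting rule its counts were reads that touched none of them. In the clusters of ranks 4, 5 and 9 the top entry carried 5.94%, 6.60% and 9.11%, and 16, 18 and 16 entries were needed for 50% of the counts. The second most counted member was rat_piRNA_146880, with 69765 counts, in a chromosome 11 cluster of 153 members.

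Among the 10 members with the most counts, 9 lay in clusters. The exception was rat_piRNA_87423 on chromosome 8 (positions 39761157 to 39761185), with 35013 counts in a bin of 5 members. Its level was 3846, 4480, 4034 and 3891 CPM on HFD and 5487, 4419, 3985 and 3512 CPM on CD, each in the order of replicates 1 to 4, so that CD held both the highest and the lowest library. Over these 10 and the top entry of each of the 10 clusters, 15 entries in all, log2 fold changes lay between -0.19 (rat_piRNA_178879, SE 0.09, adjusted p = 0.996) and 0.01 (rat_piRNA_73449, SE 0.11), and the diets overlapped in each. Both limits rested on 1 library, since rat_piRNA_178879 was at -0.07 without CD replicate 2 and rat_piRNA_73449 at 0.15 without CD replicate 1.

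Whether a member had counts went with how many other entries it overlapped. The annotation was dense: 35781 members (89.3%) overlapped at least 1 other listed entry, the median member overlapped 5 and the most crowded overlapped 75. Of the 4291 members that overlapped none, 76.0% had a count, and they held 76.1% of all member counts. With 1 overlapping entry 35.9% had a count, with 2 it was 17.9% and with 3 it was 11.3%. Of the 14429 members that overlapped 8 or more, 0.929% had a count, and together they held 0.444% of the counts. Reads that touched several entries were not in the counts, so that the level of a cluster here is that of its countable entries.

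**Figure D2:**
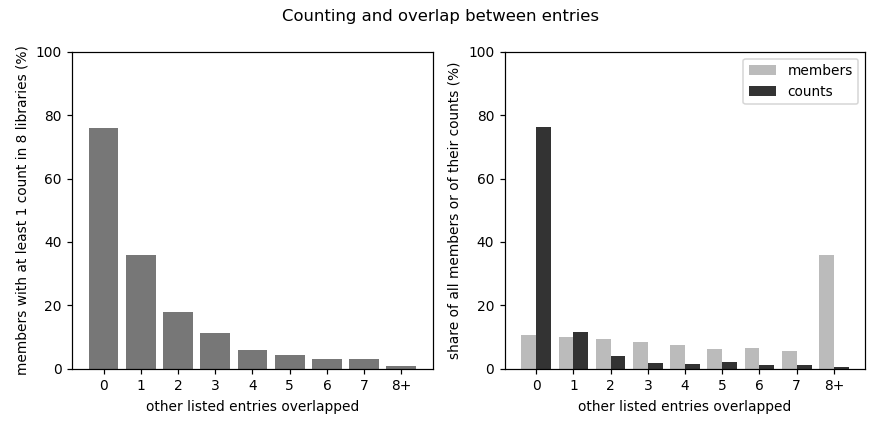
Left, the percent of members with at least 1 count in the 8 libraries, by the number of other listed entries that the member overlapped. Right, the percent of all members (grey) and of all member counts (black) in the same classes: members without overlap were 10.7% of members and held 76.1% of counts, and those with 8 or more overlaps were 36.0% of members and held 0.444%.

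Length went less clearly with the counts. Members of 28 or 29 nt were 45.2% of all members and held 54.2% of the counts. The share of members with a count was 14.4% at 24 nt, 16.3% at 28 nt, 17.4% at 29 nt and 19.9% at 31 nt. Among members without overlap it also rose over these lengths, at 72.1%, 76.0%, 76.7% and 85.7%, the last on 42 members. Other lengths broke the order there, with 81.6% at 21 nt, 78.5% at 27 nt and 74.0% at 30 nt. By the methods, reads were kept only above a minimum length after adaptor removal, so that counts on the shortest entries came from reads longer than the entry, and these shares do not give the lengths of the piRNAs present.

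Dense stretches of entries with and without counts lay side by side. The members were also placed in windows of 5 kb, a choice made after the values were seen. Of the 264 windows with at least 20 members, 177 had over 10 counts per member and 65 had at most 1. Those 65 windows held 10880 members, 27.2% of all, and 2686 counts. The median member overlapped 7 other entries there and 5 in the 177 high windows. Among members that overlapped no other entry, 98.2% of 2024 had a count in the high windows, with a median of 454, against 46.8% of 637 in the low windows, with a median of 0. These members held 3410454 of the 4565136 counts in the high windows and 1789 of the 2686 in the low windows. The windows were classed by those counts, so that the difference follows at least in part from the classing.

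In 9 places, a window with over 10 counts per member stood next to one with at most 10 and at least 20 times fewer, among 165 pairs of neighbouring dense windows. The counted window had the lower coordinates in 8 of the 9. The exception was on chromosome 12, where 79 members above the step at 51085 kb had 836 counts and 73 members below it had 10. Over the 9 places, the dense windows of the counted sides held 4540 members and 930805 counts, and those of the other sides 4417 members and 2073 counts. The places were picked by the counts of their members, so that the contrasts described next are not independent of that choice.

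The place on chromosome 4 had the longest run of dense windows among the 9. In the 60 kb below the step at 231255 kb, 1673 members held 357972 counts, and 179 of the 181 members without overlap had a count, with a median of 446. In the next 15 kb, 845 members held 194 counts, and 16 of 30 members without overlap had a count, with a median of 1.5. The lower side was at 41876 to 43570 CPM over the 8 libraries and the upper side at 17.1 to 35.7 CPM, so that every library of both diets showed the step.

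At the step on chromosome 1 at 136200 kb, which lay between neighbouring clusters, 1768 members below held 381767 counts and 465 members above held 512. Members without overlap had medians of 851 and 3 there. In members without overlap the contrast was smaller or absent at some other places. Their medians were 17.5 and 1 on chromosome 1 at 135465 kb and 18 and 9 on chromosome 13 at 80955 kb. On chromosome 5 at 82200 kb they were 0 and 0. At 132055 kb on chromosome 1, 430 members below the step held 133796 counts and 773 above it held 721. Members without overlap had medians of 344.5 and 1 at that step. On chromosome 9 at 113505 kb these medians were 631 and 2, on 7 and 4 members. At the chromosome 5 step, 649 members above the step had 1 count in all, but only 3 members below it had any, so that this step rested on few entries. All counted reads were of the minus strand, so that plus-strand reads of these places were not measured, and the part of strand in the steps was not tested.

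**Figure D3:**
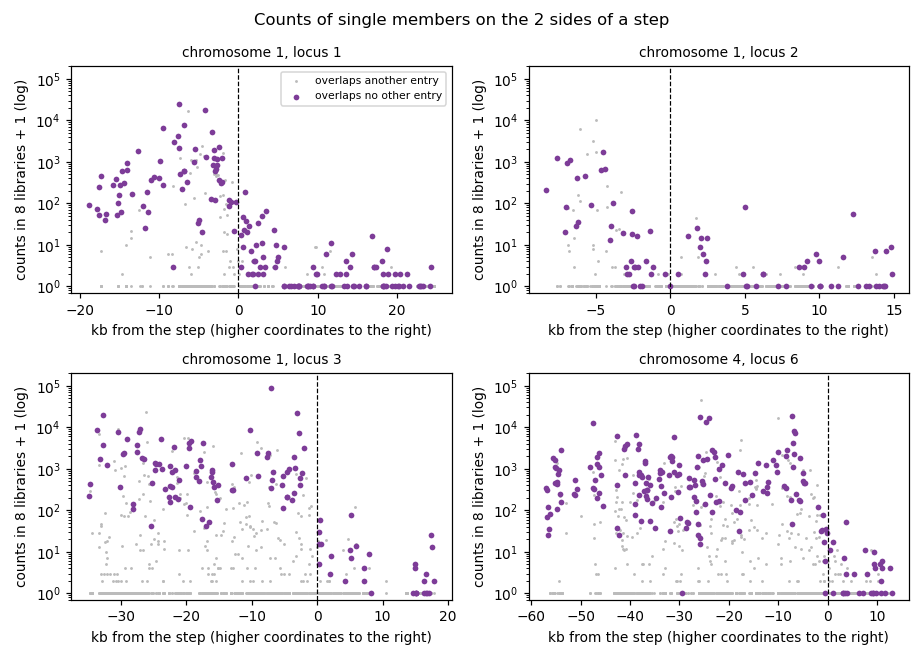
Counts of single members plus 1, summed over the 8 libraries, on a log axis, against the distance in kb from the step, with higher coordinates to the right, for the 4 of the 9 places with the most members. Purple points overlap no other entry and grey points overlap at least 1. The purple points have a higher median on the left of each dashed line than on the right. These medians are 446 and 1.5 counts at the chromosome 4 place, but only 17.5 and 1 on chromosome 1 at 135465 kb.

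Diet was compared over all entries, to ask whether the HFD changed the piRNAs of germ cells. No member passed the test. edgeR's quasi-likelihood test on all 7818 testable entries gave 0 with an adjusted p under 0.05 (0%), and the smallest adjusted p of a member was 0.996. At an unadjusted p under 0.05 there were 115 of 4582 members (2.51%, 63 higher and 52 lower on HFD), against 3.02% of all entries. DESeq2 with shrunken fold changes gave 0 adjusted and 34 unadjusted members (0.742%, against 0.959% of all entries), and without shrinkage 0 and 37 (0.808%, against 1.07%). The median log2 fold change was 0.00 for members and 0.00 for all entries.

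The members with the smallest p in each direction had few reads. rat_piRNA_88430, in the chromosome 20 cluster of 280 members, was at 3.20, 4.46, 7.25 and 4.17 CPM on HFD and 1.05, 1.83, 0.941 and 0 CPM on CD, each in the order of replicates 1 to 4. All HFD libraries lay above all CD libraries, on 25 counts in total, with a log2 fold change of 2.19 (SE 0.65, adjusted p = 0.996). rat_piRNA_88430 overlapped 13 other listed entries, and reads that also touched any of them were not counted. rat_piRNA_76852, in the chromosome 15 cluster, was at 1.07, 2.23, 0.805 and 3.34 CPM on HFD and 8.39, 6.42, 3.76 and 8.16 CPM on CD. The CD libraries lay above the HFD libraries, on 35 counts, with a log2 fold change of -1.76 (SE 0.53, adjusted p = 0.996). This member overlapped no other entry.

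Summed by cluster, the levels were compared in a table with all non-member entries as further rows, 3451 in all. Of the 102 clusters, 92 had enough reads for the test and 0 passed it, as did 0 of all rows (0%). At an unadjusted p under 0.05 there were 2 of 92 clusters (2.17%), against 3.33% of all rows, and both DESeq2 fits gave 0 clusters adjusted and 0 unadjusted. Log2 fold changes were above 0 in 33 clusters and below 0 in 59, with a median of -0.02 (0.00 over all rows), and 72 lay within 0.1 of 0.

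The precision was highest where the reads were. In the 51 clusters with over 10000 counts, log2 fold changes lay between -0.10 and 0.06, with 95% intervals that ran from -0.38 at the lowest to 0.50 at the highest, and the SD over the 8 libraries had a median of 4.37% of the mean. In the 10 largest, the 95% intervals ran from -0.20 at the lowest to 0.09 at the highest. The 2 clusters with an unadjusted p under 0.05 were small. One, on chromosome 17 from position 17231484, had 49 counts and a log2 fold change of -1.09 (SE 0.46, adjusted p = 0.996), and the other, on chromosome 2 from position 247992848, had 69 counts and 0.75 (SE 0.34, adjusted p = 0.996). Their libraries overlapped between diets, at 1.07 to 5.84 CPM on HFD and 5.50 to 12.2 CPM on CD for the first, and at 7.48 to 11.3 CPM on HFD and 3.67 to 9.41 CPM on CD for the second.

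**Figure D4:**
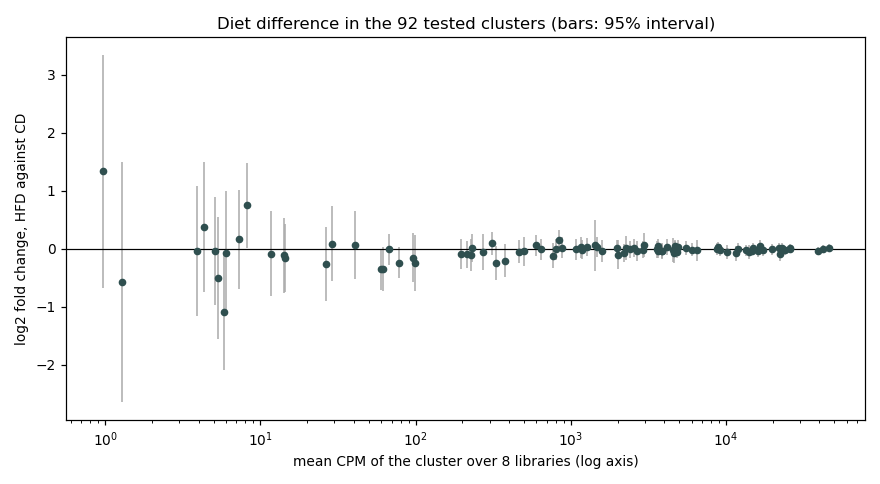
Log2 fold change of HFD against CD for each of the 92 tested clusters, with its 95% interval from edgeR, against the mean CPM of the cluster on a log axis. Clusters on the right, with the most reads, lie close to 0, and the wide intervals belong to the clusters with the fewest reads on the left.

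In 2 of the 92 clusters (2.17%) the HFD and CD libraries did not overlap, against 2.52% of all rows. A chromosome 3 cluster from position 127061731 was at 14416, 14597, 14272 and 14648 CPM on HFD and 15097, 14741, 15113 and 14728 CPM on CD, each in the order of replicates 1 to 4. All CD libraries were higher, with a log2 fold change of HFD against CD of -0.03 (SE 0.04, adjusted p = 0.996). A cluster of 27 members on chromosome 4 from position 231197998 was at 852 to 921 CPM on HFD and 770 to 827 CPM on CD, with a log2 fold change of 0.15 (SE 0.08, adjusted p = 0.996). Its reads adjoin those of the second largest cluster, whose diets overlapped.

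Some members differed widely between single rats of both diets. Of the 2915 members with a mean of at least 10 counts, 2694 (92.4%) had all 8 libraries within 2-fold of their median. In 9 members the highest library exceeded 4 times the median, and in 5 the lowest was under 0.1 times it, 13 members in all. These rules were set after the values were seen, and the rats that stood apart belonged to both diets.

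A wide gap was seen at rat_piRNA_166969 on chromosome 17 (positions 17317027 to 17317052). It was at 927, 2.23, 2.42 and 1.67 CPM on HFD and 817, 3.67, 3.76 and 1.02 CPM on CD, each in the order of replicates 1 to 4. HFD replicate 1 and CD replicate 1 thus stood far above the other 6 libraries, and the cluster around it, at 1129 to 2221 CPM, had an SD of 27.9% of its mean, the largest among clusters with over 10000 counts. At rat_piRNA_146084 on chromosome 12 (positions 571471 to 571498), the only member of its bin, levels were 214, 0, 105 and 0 CPM on HFD and 110, 0, 194 and 0 CPM on CD. Replicates 1 and 3 of each diet had counts on this entry and replicates 2 and 4 of each had none.

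In the chromosome 1 cluster with the most counts, 3 members stood apart in the same rats. rat_piRNA_84345 was at 18.2, 0, 0 and 37.6 CPM on HFD and 55.6, 0, 0 and 0 CPM on CD, each in the order of replicates 1 to 4. HFD replicates 1 and 4 and CD replicate 1 were also the highest for rat_piRNA_71663, at 82.3, 54.2 and 79.7 CPM against 5.50 to 13.3 CPM, and for rat_piRNA_180263, at 37.4, 30.9 and 26.2 CPM against 1.61 to 4.08 CPM. The 3 starts spread over 35.3 kb, and none of the 3 overlapped another entry.

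Low values in single rats were seen too. rat_piRNA_152656, in the chromosome 12 cluster from position 8604339, was at 1.07 CPM in HFD replicate 1 and 0 in CD replicate 3, and at 69.3 to 216 CPM in the other 6 libraries. rat_piRNA_161970 on chromosome 1 (positions 98859166 to 98859196) was at 5.24 CPM in CD replicate 1 and 109 to 190 CPM elsewhere. rat_piRNA_77887 was at 2.14, 2.10 and 0.941 CPM in HFD replicate 1, CD replicate 1 and CD replicate 3 and at 21.4 to 49.1 CPM in the others. rat_piRNA_170896 had no count in HFD replicate 3 and CD replicate 4 and 13.2 to 19.2 CPM in the others.

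A set of 4 members outside clusters was high in HFD replicate 3 and, less so, in CD replicate 3. rat_piRNA_63606 on chromosome 11 (positions 84416719 to 84416747) was at 443, 651, 6116 and 517 CPM on HFD and 610, 674, 1679 and 702 CPM on CD, each in the order of replicates 1 to 4. rat_piRNA_79396 and rat_piRNA_64535, with starts 1.17 kb apart on chromosome 20, reached 3963 and 1354 CPM in HFD replicate 3 and 1319 and 416 CPM in CD replicate 3, against at most 484 and 41.8 CPM in the others. rat_piRNA_175932 on chromosome 5 reached 1831 and 407 CPM in these libraries, against at most 105 CPM.

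Together the 4 took 13264 CPM in HFD replicate 3, 3820 CPM in CD replicate 3 and 926 to 1333 CPM in the other 6. Members outside clusters held 3.05% of the piRNA counts in HFD replicate 3, against 1.82% to 2.10% elsewhere, and without the 4 entries 1.72% against 1.69% to 1.84%. The diet differences of the 4 had log2 fold changes of 0.97 to 1.57 with SEs of 0.63 to 1.02 and adjusted p-values of 0.996. These directions rested on HFD replicate 3: without it, all 4 were lower on HFD, with log2 fold changes of -0.77 (rat_piRNA_63606), -0.77 (rat_piRNA_79396), -2.04 (rat_piRNA_64535) and -1.22 (rat_piRNA_175932), none with an adjusted p under 0.05. Without CD replicate 3 they were 1.54, 1.57, 3.30 and 2.42 in the same order. The source of these reads was not tested.

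**Figure D5:**
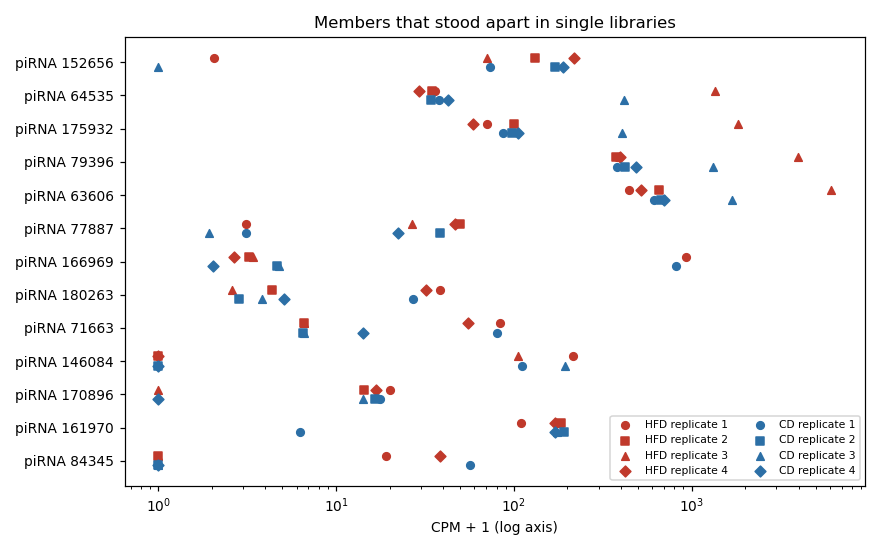
CPM plus 1 on a log axis in each of the 8 libraries for the 13 members that stood apart, with HFD in red above and CD in blue below each line and a marker shape for each replicate number. The triangles of replicate 3 lie far right for rat_piRNA_64535, rat_piRNA_175932, rat_piRNA_79396 and rat_piRNA_63606, and the circles of replicate 1 for rat_piRNA_166969.

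Outside clusters lay 968 members in 536 bins, with 173204 counts (3.53% of all member counts). They were less crowded, since 79.4% overlapped no other entry, against 9.01% inside clusters. Of the members without overlap, 47.5% of 769 had a count outside clusters and 82.2% of 3522 inside, with median counts of 0 and 104. The bin of rat_piRNA_87423 held 21.2% of the outside counts. In the bin with the next most outside counts, on chromosome 4, rat_piRNA_165668 (positions 182237590 to 182237613) held 14474 of 14477 counts.

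Genes beside clusters were looked at in the mRNA libraries, and only as positions and counts, without names. The stretch from the first to the last member overlapped the span of a gene in 25 clusters, and the median distance to the nearest gene was 12.8 kb over all 102, with a maximum of 396 kb. Inside gene spans but outside exons lay 2113 members (5.27%) with 5.97% of the member counts. Of these, 983 were among the 1782 members of the chromosome 1 cluster with the most counts. Of the members high in HFD replicate 3, rat_piRNA_63606 and rat_piRNA_175932 lay inside gene spans, and rat_piRNA_79396 and rat_piRNA_64535 did not. The nearest genes were 92, of which 85 could be tested. None passed edgeR's test at an adjusted p under 0.05, as among all 19446 genes (0%), and 4 had an unadjusted p under 0.05 (4.71%, against 3.73% of all genes). DESeq2 called 6 genes with and 7 without shrinkage among all genes and none of the nearest genes.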

How the data were processed

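Per the file headers and the methods, the authors deposited unnormalized counts of uniquely mapped rn5 reads per feature, made with featureCounts 1.4.6 (reverse strand for piRNAs, miRNAs and genes, both strands for repeats). The count column of CD replicate 4 (small RNA) carries another library number than its file name, and the record of each file was followed.

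The members and lists were chosen with earlier results of these data known. Overlaps with repeats and exons used 1 base or more, with strand ignored, and clusters were fixed bins of 100 kb. Tests needed an average of 1 count or more per library. They were run over all features with the quasi-likelihood method of edgeR 4.0.16 in R 4.3.3 after TMM scaling, at a false discovery rate of 0.05 (Benjamini-Hochberg), and with DESeq2 1.42.0 as an alternative. Clusters and members were named by the most counts, the most entries and the smallest p in each direction. SEs were the log2 fold change over the square root of F. The fits were tested on simulated data, as a check of the code only, and no result here rests on that. The planned tests of piRNA pathway genes and of cell type markers were not run, since the gene table of the reference matched no gene identifier. By the methods, each library came from 1 rat, and p-values measure the spread between rats, library preparation included. The labels and the study's text differ in the fat content of the HFD, and the label's value is given. Alternatives were DESeq2, other size factors and filters, a robust fit, the replicate block, leaving out each library and other definitions of members and clusters.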

Additional observations from a re-analysis of the deposited data

Results flagged for a closer look

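Within a diet, the highest or lowest of the 4 libraries was compared with the other 3 by Dixon's ratio, for the shares, the named clusters and the named members, 94 groups in all. The ratio passed its 95% limit in 23 groups, where chance gives about 1 in 20, but the members that stood apart had been picked for their spread.

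HFD replicate 3 was the highest HFD library for the share of piRNA counts on members outside clusters (3.05%), for rat_piRNA_63606 (6116 CPM), rat_piRNA_79396 (3963 CPM), rat_piRNA_64535 (1354 CPM) and rat_piRNA_175932 (1831 CPM), and the lowest for rat_piRNA_167524 (4840 CPM). CD replicate 3 was the highest CD library for the same 4 members outside clusters, at 1679, 1319, 416 and 407 CPM in that order, and for rat_piRNA_165114 (11881 CPM).

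CD replicate 1 was the highest CD library for rat_piRNA_180263 (26.2 CPM), rat_piRNA_84345 (55.6 CPM), rat_piRNA_71663 (79.7 CPM) and rat_piRNA_166969 (817 CPM), and the lowest for rat_piRNA_161970 (5.24 CPM). HFD replicate 1 was the highest HFD library for rat_piRNA_166969 (927 CPM) and rat_piRNA_166578 (329 CPM). It was the lowest for rat_piRNA_153999 (1503 CPM) and for the chromosome 2 cluster from position 247992848 (7.48 CPM).

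HFD replicate 4 was the lowest HFD library for the richest cluster, on chromosome 20 (15298 CPM), and the highest for rat_piRNA_178885 (1756 CPM). CD replicate 2 was the highest CD library for rat_piRNA_178879 (5589 CPM).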

How the results depend on the processing

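No cluster was called under any of the 16 alternative fits, filters, library sizes and left-out libraries. The diet test was not run on clusters defined in other ways. Without a filter beyond 1 count, 28 of 10622 entries were called, and 7 of the 6313 members among them. With the replicate block, 8 of 7818 entries were called, and 1 of the 4582 members among them. The 7 members called without the filter included the 4 that were high in HFD replicate 3. The SEs of these 4 were 0.10 to 0.13 in that fit, against 0.63 to 1.02 in the main fit. The member called with the block was rat_piRNA_166578 on chromosome 5, at 329, 148, 147 and 128 CPM on HFD and 426, 290, 233 and 164 CPM on CD, with a log2 fold change of -0.58 (adjusted p = 0.039 with the block and 0.996 without it). Leaving out 1 library gave 0 to 1 calls over all entries, the 1 without CD replicate 3, and it was no member. The replicate numbers share no stated litter or day, so that the block is no stated pairing. Deviations of same-numbered libraries correlated at 0.33, -0.05, 0.12 and -0.08 for numbers 1 to 4. The highest correlation with a library of another number was -0.06, 0.30, 0.05 and 0.30 in the same order. Correlations cannot show whether the libraries were paired, and this was not tested. The fold changes of the 10 clusters with the most counts stayed between -0.12 and 0.04 under those 16 alternatives.

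Members numbered 37959 with gene spans in place of exons and 40949 with a repeat required to cover at least 50% of an entry, and clusters 90 to 115 over the other definitions. With gene spans, the mean share of piRNA counts was 55.2% on members and 53.5% in clusters. With the looser repeat rule it was 59.3% and 57.3%, and the cluster share was 57.2% with a threshold of 10 entries and 56.1% with 40. As a share of piRNA, repeat and miRNA counts together, members held 16% and clusters 15.4%.

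A mean under 1 count per library kept 35490 members out of the tests, and neither plus-strand reads nor reads on several entries are in any count. The pathway gene alternatives were not run.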
